A study of Homo sapiens with 6 samples.

Results

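The human zinc finger genes with a ZNF symbol form dense tandem groups on chromosome 19, and their expression was measured by RNA-seq after knockdown of SATB1 in Jurkat, an established line of human T cell leukaemia. All 6 libraries came from this line, cultured in the same medium and infected with a lentiviral vector. A control short hairpin RNA (shCtrl, genotype control, 3 libraries) served as the reference for a hairpin that targets SATB1 (shSATB1, 3 libraries), a nuclear protein that binds DNA and shapes chromatin folding in T cells. The members were taken by type, name and position: protein-coding genes in GENCODE 29, with a symbol of ZNF and digits with at most 1 letter after them, on chromosome 19. They numbered 246 of the 58735 genes counted. The rule itself uses no measured value, though the set was chosen with earlier results of these data known. Another 263 coding ZNF genes lie on other chromosomes, and 1226 other coding genes lie on chromosome 19. The labels do not say whether the 3 libraries of a group are separate cultures. Each p-value is therefore set against a spread that may be technical. In RNA from whole cultures, a change in some cells and a smaller change in all cells cannot be told apart.

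Most of these genes encode KRAB zinc finger proteins. The C-terminal array of C2H2 fingers reads DNA, each finger holding a zinc ion between a pair of cysteines and a pair of histidines. The N-terminal KRAB box recruits TRIM28, which in turn brings the H3K9 methyltransferase SETDB1 and HP1 proteins, so that many members silence retrotransposons and other repeats. The genes arose by repeated local duplication, and neighbours often share much of their sequence. A KRAB signature was found in the translated reading frame of 204 of the 246 members, against 352 of all 19951 coding genes (1.76%). At least 1 C2H2 finger was found in 245 members, with a median of 12 and at most 36.

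The duplicated coding sequence is visible in single fingers. The first finger followed by a canonical linker is shown here for 4 members of the group of genes between 19.7 and 24.1 Mb, in which more genes rose than in any other group. Each is 84 bases of coding sequence (hg38), written 5′ to 3′ along the gene, with capitals for the cysteine and histidine codons that hold the zinc ion and for the linker codons that join a finger to the next.
ZNF431 (chr19:21183003-21183086, plus strand): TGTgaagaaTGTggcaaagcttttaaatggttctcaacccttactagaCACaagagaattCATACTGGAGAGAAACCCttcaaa
ZNF714 (chr19:21117187-21117270, plus strand): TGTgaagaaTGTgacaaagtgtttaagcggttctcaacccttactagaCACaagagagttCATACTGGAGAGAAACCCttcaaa
ZNF91 (chr19:23362094-23362177, minus strand): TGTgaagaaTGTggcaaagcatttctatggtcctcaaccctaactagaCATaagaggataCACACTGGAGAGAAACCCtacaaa
ZNF101 (chr19:19679668-19679751, plus strand): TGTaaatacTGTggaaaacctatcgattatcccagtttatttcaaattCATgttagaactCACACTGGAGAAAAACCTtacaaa
ZNF431 and ZNF714 were identical at 78 of these 84 bases (92.9%), and ZNF431 and ZNF91 at 74 (88.1%). ZNF431 and ZNF101 were identical at 50 (59.5%). These are the first such fingers of each gene and need not be matching repeats of the array.

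The promoters of the members also share sequence, and the share follows the groups on the chromosome. Promoters (300 bases, from 250 before to 50 after the gene start, RefSeq on GRCh38.p14) were found for 215 of the 246 members. The word TCCAATCA, an extended CCAAT box, the element known to be bound by NF-Y, was present on either strand in 52 of them (24.2%). Below, CCAAT box stands for this word of 8 bases only, and promoters without it may hold CCAAT in other surroundings. It was present in 17 of 210 promoters of ZNF genes on other chromosomes (8.10%), in 176 of 13545 promoters of other coding genes elsewhere in the genome (1.30%) and in 1.61% of all 27305 promoters. Among 32895 words of 8 bases it had the largest difference in share between members and other coding genes. The word GTCACTCA was present in 39 member promoters (18.1%, against 0.960% of other coding genes), and 36 held both words. The ETS core CCGGAAG was present in 98 (45.6%, against 13.7%), the NRF1 core TGCGCATGC in 7 (3.26%, against 2.05%) and the ZNF143 core ACTACAATT in 3 (1.40%, against 0.406%). CCGGAAG has 7 letters and the others 8 or 9, and no 2 of these words overlap in the promoters printed here. The promoters of 4 genes whose transcripts changed are shown, with these words on either strand in capitals.
ZNF431 (chr19:21141790-21142089, plus strand): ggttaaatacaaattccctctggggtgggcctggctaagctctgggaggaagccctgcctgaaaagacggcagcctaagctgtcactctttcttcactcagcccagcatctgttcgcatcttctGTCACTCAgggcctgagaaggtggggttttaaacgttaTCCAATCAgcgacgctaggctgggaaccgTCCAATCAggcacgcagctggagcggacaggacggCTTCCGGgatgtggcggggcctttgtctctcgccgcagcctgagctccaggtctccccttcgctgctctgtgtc
ZNF708 (chr19:21329361-21329660, minus strand): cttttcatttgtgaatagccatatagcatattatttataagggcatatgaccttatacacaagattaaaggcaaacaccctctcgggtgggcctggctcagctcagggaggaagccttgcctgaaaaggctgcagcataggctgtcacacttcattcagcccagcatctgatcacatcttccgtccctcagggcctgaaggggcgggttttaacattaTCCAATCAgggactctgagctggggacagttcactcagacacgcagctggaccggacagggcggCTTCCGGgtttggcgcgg
ZNF101 (chr19:19668589-19668888, plus strand): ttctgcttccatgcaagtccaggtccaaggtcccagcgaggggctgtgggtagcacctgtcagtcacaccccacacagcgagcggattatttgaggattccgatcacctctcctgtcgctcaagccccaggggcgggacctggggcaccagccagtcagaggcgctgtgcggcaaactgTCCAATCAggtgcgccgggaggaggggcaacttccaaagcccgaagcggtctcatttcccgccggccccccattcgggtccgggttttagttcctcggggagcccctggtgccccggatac
ZNF792 (chr19:34964180-34964479, minus strand): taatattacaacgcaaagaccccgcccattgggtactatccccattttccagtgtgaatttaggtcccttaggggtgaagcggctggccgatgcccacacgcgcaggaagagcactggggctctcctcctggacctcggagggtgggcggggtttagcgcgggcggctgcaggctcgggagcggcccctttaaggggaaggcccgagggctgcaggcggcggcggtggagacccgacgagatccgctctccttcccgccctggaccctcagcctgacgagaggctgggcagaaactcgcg
ZNF431 holds the CCAAT box at 2 places, ZNF708 and ZNF101 at 1, and ZNF792 holds none of the 5 words. ZNF431 and ZNF708 rose and ZNF101 fell. These genes are shown because they changed, and a part of the box in the direction was not tested.

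The labelled knockdown was present in every library. The SATB1 transcript was at 279, 259 and 259 CPM (reads of a gene scaled to the TMM-adjusted size of its library, in order of replicate number here and throughout) with the control hairpin and at 102, 100.2 and 104 CPM with the hairpin against it. Its log2 fold change was -1.38 (SE 0.0611, adjusted p = 1.1e-08 by the edgeR quasi-likelihood test). Reads in genes ranged from 26626539 to 28913623 per library, and 3 reads corresponded to 0.103 to 0.111 CPM. Reads outside annotated exons made up 7.77% to 10.2% in shCtrl and 10.9% to 11.7% in shSATB1, so their share was higher in every knockdown library. T cell markers summed to 3416 to 3829 CPM in shCtrl and 3151 to 3405 CPM in shSATB1, and all 8 were detected and tested. Myeloid markers summed to at most 1.09 CPM and epithelial markers to at most 0.655 CPM, with EPCAM at 0 in all libraries. The 3 B cell markers summed to 48.1 to 65.1 CPM, nearly all from CD79A. The part of these differences in the results was not tested.

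Of the 246 members, 192 had enough reads to be tested and 54 did not. Among those 54, 21 had no read in any library and the highest group mean was 0.310 CPM. Of the 192, 187 had at least 10 reads in all 6 libraries, while 1 reached this only in shSATB1 and 1 only in shCtrl. The tested members were expressed at a median of 13.4 CPM (range 0.329 to 194 CPM), against 16.2 CPM for all 17520 tested genes. Per kilobase of exon the highest level was that of ZNF146, known as OZF, a protein made almost only of fingers and without a KRAB box, at 46.8 CPM per kilobase, followed by ZNF317 at 20.5 and ZNF266 at 18.0. ZNF146 was measured at 188, 208 and 189 CPM in the shCtrl libraries and 202, 185 and 193 CPM in the shSATB1 libraries. ZNF317 had 108, 98.1 and 105 CPM in the controls and 100.1, 108 and 104 CPM in the knockdown libraries. ZNF266 stood at 98.6, 104 and 95.3 CPM with the control hairpin, against 96.3, 94.0 and 94.4 CPM after knockdown. The groups overlapped for all 3 genes, and none passed the test (edgeR adjusted p = 0.920, 0.959 and 0.432).

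After SATB1 knockdown 32 of the 192 tested members rose (16.7%) and 6 fell (3.13%). Over all 17520 tested genes 14.3% rose and 16.6% fell (edgeR, with p adjusted by Benjamini-Hochberg over all tested genes and a threshold of 0.05). The share of members that rose is therefore near the background, while the share that fell is below it. The changes were small: no member changed by 2-fold or more, and the 32 that rose did so by 1.17-fold to 1.74-fold, with a median of 1.30-fold. The median log2 fold change of the tested members was 0.12, with an interquartile range from -0.02 to 0.27, and that of all tested genes was 0.01. The fold change was above 0 for 138 of 192 members (71.9%), against 51.3% of all tested genes.

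The ZNF genes of other chromosomes also had few falls. Of 221 tested ZNF genes elsewhere, 69 rose (31.2%) and 12 fell (5.43%), with a median log2 fold change of 0.17. Of 803 other tested coding genes on chromosome 19, 94 rose (11.7%) and 195 fell (24.3%), with a median of -0.08. No test was made between these sets, since genes are not replicates. The other coding genes of chromosome 19 also differ from the members in base composition, with a median GC content of 60.2% in their transcripts against 42.5% for the tested members.

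**Figure D1:**
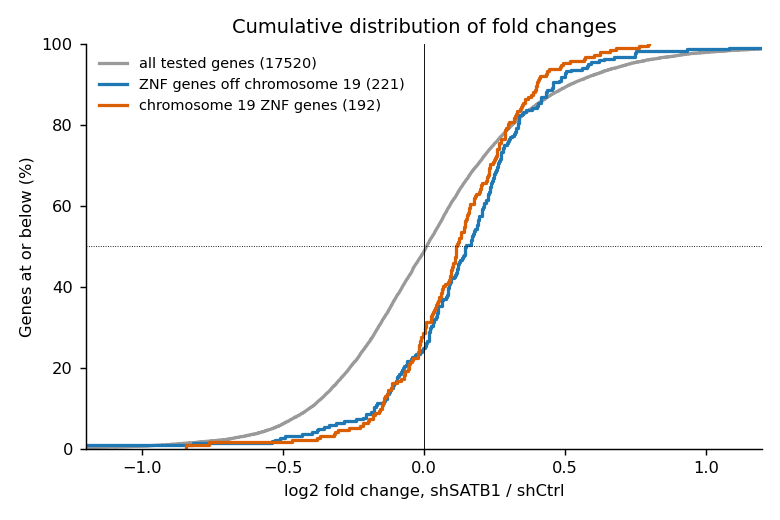
Cumulative distribution of the log2 fold change (x axis, shSATB1 over shCtrl; y axis, percent of genes at or below that value) for the 192 tested chromosome 19 ZNF genes, the 221 tested ZNF genes on other chromosomes and all 17520 tested genes. The curves of both ZNF sets lie to the right of the curve of all genes over the lower part of the range, with medians of 0.12, 0.17 and 0.01.

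The direction was visible in the level of the whole set. The members together made up 3834, 3676 and 3762 CPM in shCtrl 1, 2 and 3 and 4063, 3964 and 4013 CPM in shSATB1 1, 2 and 3. These are 3757 ± 79.2 and 4013 ± 49.3 CPM (SD, n = 3 per group), and the groups did not overlap. Taken library by library against the shCtrl mean, the median log2 value of the tested members was 0.03, -0.04 and 0.01 in shCtrl and 0.15, 0.12 and 0.11 in shSATB1. The 32 genes that rose made up 794 ± 40.2 CPM in shCtrl and 1014 ± 37.0 CPM in shSATB1, and the 6 that fell 209 ± 14.3 and 147 ± 3.52 CPM, sums that the selection of these genes fixes in direction. All 3 shSATB1 libraries lay above all 3 shCtrl libraries in 60 members (31.3%; 21.7% of all tested genes) and below them in 16 (8.33%; 23.4% of all tested genes). shCtrl 2 held the lowest of the 6 values for 77 members and shSATB1 1 the highest for 58. Leaving out shCtrl 2 gave 30 higher and 6 lower members. Without shCtrl 3, shSATB1 1 or shSATB1 3 only 17 members were called higher, and without shCtrl 1 there were 49. Without shSATB1 3 only 2 were called lower. The shares of all tested genes in these fits are not given here, so these counts cannot be set against the background.

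Fold changes depended on transcript length in these libraries. Over all tested genes the smooth trend of log2 fold change stood at -0.08 for genes with 2000 bases of exon, at 0.00 for 5000 bases and at 0.11 for 10000 bases. Over genes of at least 8 CPM it was steeper, at -0.22, -0.04 and 0.09. The exonic length of the members ranged from 1360 to 14132 bases, with a median of 5043 bases among those tested against 4121.5 for all tested genes. Less the trend over all tested genes, their median log2 fold change was 0.10, against -0.01 for all tested genes. Less the trend over genes of at least 8 CPM, it was 0.14, against 0.07 for all tested genes, the weakly expressed ones included.

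**Figure D2:**
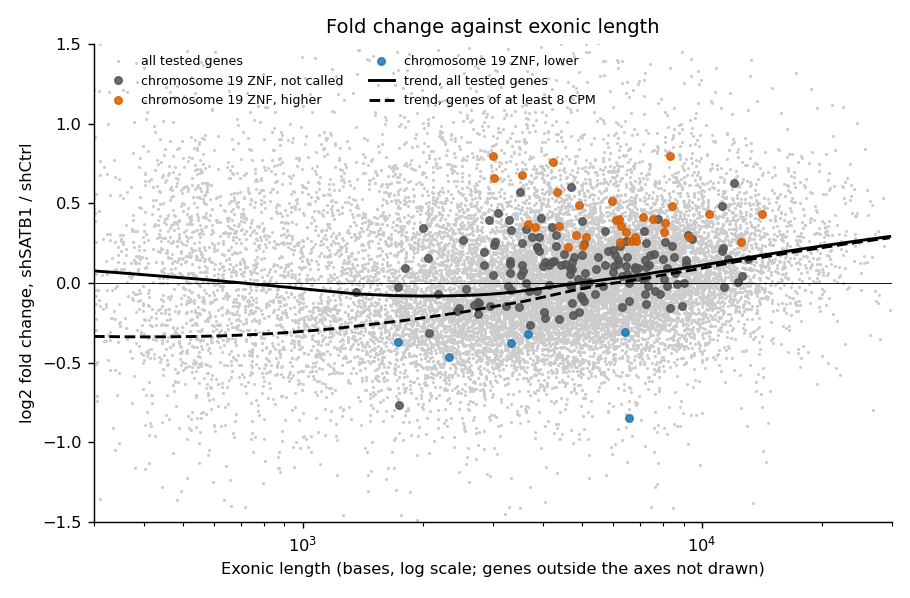
Log2 fold change (y axis, shSATB1 over shCtrl) against exonic length in bases (x axis, log scale) for all tested genes in light grey and the tested chromosome 19 ZNF genes, coloured by call, with the trend over all tested genes (solid) and over genes of at least 8 CPM (dashed). The medians of the members above the curves were 0.10 and 0.14. Both curves rise from 2000 to 10000 bases.

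When the length trend of each library was taken out of the counts before the test, falls among the members were again few. With the trend of all tested genes 38 members were called higher and 8 lower (19.8% and 4.17%, against 14.2% and 17.8% of all tested genes), among them 28 of the 32 rises and all 6 falls called without this correction. With the trend of genes of at least 8 CPM 47 were called higher and 6 lower (24.5% and 3.13%, against 18.8% and 13.8%), among them 30 of the 32 and 4 of the 6. Within the members, the 64 with the shortest exonic length held 5 rises and 4 falls, the 64 of middle length 14 and 1, and the 64 longest 13 and 1. With length taken out by the trend of all tested genes these became 12 and 4, 17 and 1, and 9 and 3. A further fit took as its covariate each library's share of reads outside annotated exons, which was higher in every knockdown library. In it 8 members were called higher and 4 lower (4.17% and 2.08%, against 4.9% and 7.2% of all tested genes), and the median log2 fold change was 0.06. Among these were 5 of the 32 rises and 2 of the 6 falls. Since this share separates the groups, it can hardly be told apart from the knockdown in 6 libraries. A call lost in this fit, here and below, is therefore read neither way.

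The members fall into 16 groups along chromosome 19 when a gap of over 1 Mb ends a group, and 7 of these held at least 10 tested members. These 7 groups held 174 of the 192 tested members, 28 of the 32 that rose and 5 of the 6 that fell. Counted from the short-arm end, they are groups 2, 3, 5, 9, 12, 15 and 16. The rises and falls described below with their values were picked from called members whose groups did not overlap. For these genes separate groups were a condition of the choice and not a further result.

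Group 5, on 19p13.11 to 19p12 between 19668796 and 24129961, held the most rises: 9 of 23 tested members rose (39.1%), 1 fell, and the median log2 fold change was 0.27. It is known as a primate-expanded set of KRAB zinc finger genes, set among beta-satellite repeats. The 9 were ZNF506, ZNF737, ZNF66, ZNF430, ZNF714, ZNF431, ZNF708, ZNF91 and ZNF675. All 29 promoters found in it held the CCAAT box and 22 held GTCACTCA, and its tested transcripts had a median GC content of 37.4%. Another 14 of its 37 members did not have enough reads to be tested.

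ZNF431 (ENSG00000196705, chr19:21142024-21196053, plus strand), the gene with the longest exonic sequence of all members, was measured at 85.5, 75.5 and 86.4 CPM in the shCtrl libraries and 112, 103 and 120 CPM in the shSATB1 libraries. Every knockdown library lay above every control library, a condition of its choice. It rose by 0.43 on the log2 scale (SE 0.0744, adjusted p = 0.000729). With the length trend of all tested genes taken out, its rise was 0.26 (edgeR adjusted p = 0.00403). With GC content taken out as well, it was 0.18 (edgeR adjusted p = 0.0107).

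ZNF91 (ENSG00000167232, chr19:23304991-23395560, minus strand), known to silence SVA retrotransposons, has 31 fingers. It had 42.0, 33.5 and 40.0 CPM in the controls and 56.4, 49.3 and 50.6 CPM in the knockdown libraries. The groups did not overlap, and it rose by 0.44 (SE 0.0876, adjusted p = 0.00210). With the length trend of all tested genes taken out, its rise was 0.32 (edgeR adjusted p = 0.0021). With GC content taken out as well, it was 0.24 (edgeR adjusted p = 0.0169). ZNF93, which is known to silence young LINE-1 elements and lies in the same group, had at most 0.108 CPM in any library and was not tested.

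ZNF708 (ENSG00000182141, chr19:21291160-21329425, minus strand) stood at 14.2, 11.4 and 12.9 CPM with the control hairpin, against 20.1, 16.8 and 20.3 CPM after knockdown. It rose by 0.57 (SE 0.105, adjusted p = 0.00123), and by 0.60 with the length trend taken out (edgeR adjusted p = 0.000427). The rises of ZNF431, ZNF91 and ZNF708 did not pass with the share of reads outside annotated exons as covariate (adjusted p = 0.137, 0.593 and 0.442). ZNF737 (ENSG00000237440, chr19:20535825-20565809, minus strand) was a weakly expressed gene, at 1.65, 1.38 and 1.22 CPM in shCtrl and 2.29, 2.12 and 2.41 CPM in shSATB1. It rose by 0.68 (SE 0.205, adjusted p = 0.0220), a call that was lost with the covariate (adjusted p = 0.538) and without shCtrl 3, shSATB1 1 or shSATB1 3 (adjusted p = 0.0945, 0.0667 and 0.0826).

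ZNF101 (ENSG00000181896, chr19:19668796-19683509, plus strand) begins the same group and had the largest fall of all tested members. It was measured at 70.9, 79.7 and 70.0 CPM in the shCtrl libraries and 40.2, 41.0 and 41.8 CPM in the shSATB1 libraries. The control libraries all lay far above the knockdown libraries, by more than the spread within either group. It fell by 0.84 on the log2 scale (SE 0.0691, adjusted p = 2.4e-06), and the call held under all 18 alternatives, with adjusted p between 1.45e-25 and 0.000212. It encodes a KRAB protein with 9 fingers, 3.47% of its 50-base windows recur in other genes, and its exons overlap no other gene. It is the only member called lower when each library is left out in turn.

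**Figure D3:**
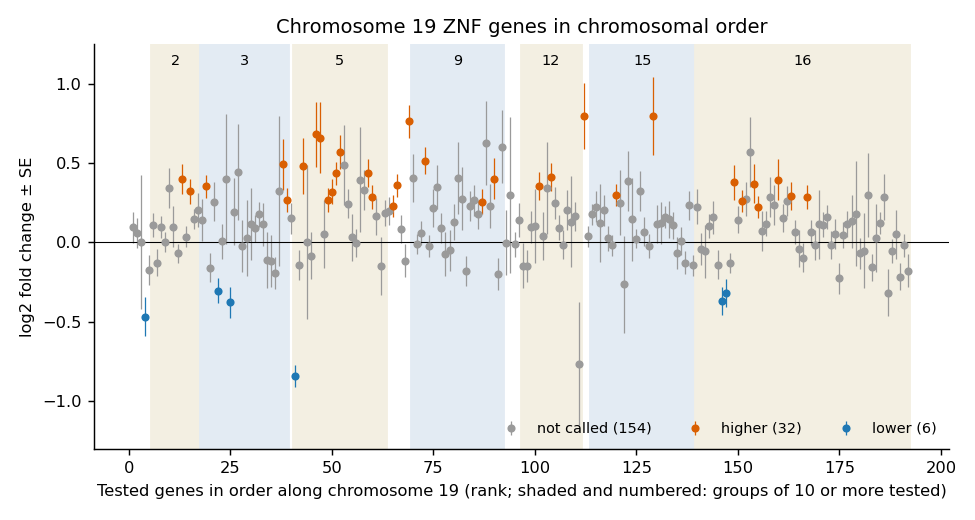
Log2 fold change with its standard error (y axis) for the 192 tested members in their order along chromosome 19 (x axis, rank), coloured by call, with the 7 groups of at least 10 tested members shaded and numbered. Group 5 holds 9 of the 32 rises and, at its start, the lowest point of all, ZNF101 at -0.84.

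Group 9 (36182060 to 37817300) had a median of 0.23, and its 24 promoters did not hold the word TCCAATCA. In it 3 of 23 tested members rose (13.0%), with no fall. These were ZNF260, ZNF570 and ZNF571. ZNF260 (ENSG00000254004, chr19:36510695-36528660, minus strand), a protein of 13 fingers without a KRAB box that is known as a partner of GATA4 in heart, had 38.7, 40.2 and 42.5 CPM in the controls and 58.4, 50.6 and 64.7 CPM in the knockdown libraries. Every knockdown library exceeded every control library, which was a condition for naming it among the rises. It rose by 0.52 (SE 0.0857, adjusted p = 0.000591), and this call held under all 18 alternatives with adjusted p of at most 0.0207.

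The small group 8 (34677639 to 34964049) held 5 tested members, of which ZNF302, ZNF181 and ZNF792 rose. ZNF792 (ENSG00000180884, chr19:34956354-34964049, minus strand) stood at 10.6, 9.09 and 10.2 CPM with the control hairpin, against 18.1, 17.6 and 15.1 CPM after knockdown. The lowest knockdown library was well above the highest control library. It rose by 0.76 (SE 0.102, adjusted p = 0.000128), the lowest adjusted p of any rise, and it kept the call under all 18 alternatives. None of its 50-base windows recurs in another gene, and its transcript has a GC content of 50.5%, above the members' median.

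Group 3 (11483427 to 12640098) held changes in both directions. ZNF627, ZNF490 and ZNF791 rose and ZNF440 and ZNF700 fell among 22 tested members, with a median of 0.11, and 19 of its 24 promoters held the CCAAT box. ZNF700 (ENSG00000196757, chr19:11925068-11950773, plus strand) was measured at 27.8, 35.4 and 30.1 CPM in the shCtrl libraries and 25.96, 22.1 and 23.8 CPM in the shSATB1 libraries, and fell by 0.38 (SE 0.0965, adjusted p = 0.00913). ZNF440 (ENSG00000171295, chr19:11814284-11835201, plus strand) had 27.3, 24.4 and 26.1 CPM in the controls and 21.01, 21.6 and 20.4 CPM in the knockdown libraries, and fell by 0.30 (SE 0.0782, adjusted p = 0.00949). Neither gene's groups overlapped. With the covariate ZNF440 kept its call (adjusted p = 0.0248) and ZNF700 lost it, with a log2 fold change of -0.13 (adjusted p = 0.622). ZNF440 lost its call without shSATB1 3 (adjusted p = 0.0569) and ZNF700 without shSATB1 2 (0.0629). ZNF490 (ENSG00000188033, chr19:12577961-12640098, minus strand) stood at 3.84, 2.76 and 3.21 CPM with the control hairpin, against 4.22, 4.94 and 4.65 CPM after knockdown, and rose by 0.49 (SE 0.159, adjusted p = 0.0307). Its exons overlap those of other genes over 61.3% of their length, so its reads are uncertain. With the covariate its log2 fold change was 0.19 (adjusted p = 0.735), and its call was also lost without shCtrl 2, shCtrl 3, shSATB1 2 or shSATB1 3 (adjusted p = 0.0697, 0.0885, 0.104 and 0.0890).

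Group 1 at the short-arm end (2819874 to 2944971) had 5 tested members and 1 fall. ZNF57 (ENSG00000171970, chr19:2900898-2918476, plus strand) was measured at 10.2, 11.9 and 10.0 CPM in the shCtrl libraries and 8.19, 8.57 and 6.52 CPM in the shSATB1 libraries. The groups did not overlap, and it fell by 0.47 (SE 0.124, adjusted p = 0.0112). With the covariate its log2 fold change was -0.19 (adjusted p = 0.593). The call was also lost with the length trend of genes of at least 8 CPM and without shSATB1 3 (adjusted p = 0.0741). The CCAAT box was present in 4 of the 5 promoters of this group. Groups 1, 3 and 5 thus held all 52 promoters with the word TCCAATCA, and no promoter found in any other group had this word. The word and the position on the chromosome can therefore hardly be told apart.

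Group 16 at the long-arm end (55476332 to 58481230) was the largest, with 53 tested members, of which 7 rose (13.2%) and 2 fell, at a median of 0.10. The rises were those of ZNF583, ZNF264, ZNF543, ZNF304, ZNF772, ZNF549 and ZNF134. The falls were those of ZNF581 and ZNF787, both without a KRAB signature and with GC-rich transcripts (59.6% and 70.3%). ZNF581 (ENSG00000171425, chr19:55635459-55645622, plus strand) had 28.7, 33.4 and 29.7 CPM in the controls and 23.8, 25.7 and 21.5 CPM in the knockdown libraries, and fell by 0.37 (SE 0.0880, adjusted p = 0.00615). ZNF787 (ENSG00000142409, chr19:56087366-56121280, minus strand) stood at 34.4, 40.8 and 36.5 CPM with the control hairpin, against 26.6, 32.3 and 30.6 CPM after knockdown, and fell by 0.32 (SE 0.0887, adjusted p = 0.0142). The groups of both genes did not overlap, and both lost their calls with the covariate (adjusted p = 0.618 and 0.864) and without shSATB1 3 (0.0519 and 0.0513), and ZNF787 also without shSATB1 1 (0.101). ZNF581 also lost it with the length trend of genes of at least 8 CPM.

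Groups 2, 12 and 15 each held 2 rises and no fall, among 12, 15 and 26 tested members. These were ZNF426 and ZNF561, ZNF45 and ZNF224, and ZNF480 and ZNF320. ZNF224 (ENSG00000267680, chr19:44094339-44109886, plus strand), known as a repressor of aldolase A and a partner of WT1, was measured at 12.5, 13.1 and 13.8 CPM in the shCtrl libraries and 18.6, 16.3 and 17.6 CPM in the shSATB1 libraries. It rose by 0.41 (SE 0.0899, adjusted p = 0.00351), with no overlap between the groups, and 40.5% of its exonic length overlaps other genes. With the covariate it was at 0.40 on the log2 scale and did not pass (adjusted p = 0.105). ZNF320 (ENSG00000182986, chr19:52863790-52897693, minus strand) had 1.54, 0.909 and 1.29 CPM in the controls and 2.69, 1.87 and 1.97 CPM in the knockdown libraries, and rose by 0.80 (SE 0.247, adjusted p = 0.0251). Nearly all of its 50-base windows (99.5%) recur in other annotated genes. The counting set apart reads that aligned to more than 1 place or overlapped more than 1 gene. Its count may therefore rest on a small part of its sequence. With the covariate its log2 fold change was 0.04 (adjusted p = 0.969). Its call was also lost without shCtrl 2, shCtrl 3, shSATB1 1 or shSATB1 3 (adjusted p = 0.0577, 0.0628, 0.130 and 0.0520). ZNF114 (ENSG00000178150, chr19:48270102-48287608, plus strand), outside these groups, is a short gene with 3 fingers at 1.47, 1.49 and 1.11 CPM in shCtrl and 2.58, 2.40 and 2.10 CPM in shSATB1. Its groups did not overlap, and it rose by 0.80 (SE 0.210, adjusted p = 0.0109). With the covariate its log2 fold change was 0.88 and did not pass (adjusted p = 0.167). The call was also lost without shCtrl 3 or shSATB1 1 (adjusted p = 0.0580 and 0.0533).

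**Figure D4:**
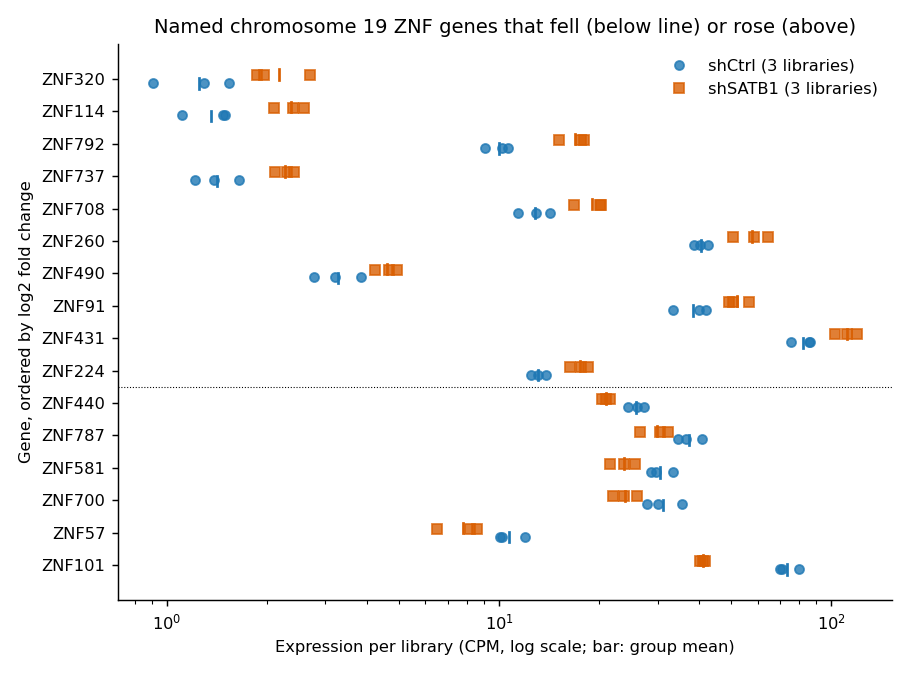
Expression in CPM (x axis, log scale) of the 6 members that fell and the 10 largest rises among called members of at least 2 CPM in the higher group whose groups did not overlap (y axis, ordered by log2 fold change), with circles for the 3 shCtrl libraries, squares for the 3 shSATB1 libraries and bars for the group means. Separate groups were a condition for all 16 genes, and the widest gap among the falls is that of ZNF101, with 70.0 to 79.7 CPM against 40.2 to 41.8 CPM.

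Further members were listed by name whatever their values, and none of these passed the test without a correction. ZNF274, known to bring SETDB1 to the 3′ ends of other zinc finger genes, stood at 16.9, 17.4 and 16.3 CPM with the control hairpin, against 14.02, 15.3 and 16.03 CPM after knockdown (log2 fold change -0.16, adjusted p = 0.191). ZNF473, the U7 snRNP component ZFP100 of histone mRNA processing, stood at 44.0 ± 0.682 and 45.2 ± 1.59 CPM (adjusted p = 0.693). ZNF350, the BRCA1 partner ZBRK1, was near 1 CPM in both groups, at 1.11 ± 0.195 and 1.21 ± 0.0203 (adjusted p = 0.746). ZNF587 stood at 40.2 ± 4.32 and 43.5 ± 2.00 CPM (adjusted p = 0.318), with 35.0% of its exonic length in other genes. ZNF331, an imprinted gene, was measured at 42.8, 41.0 and 43.8 CPM in the shCtrl libraries and 39.0, 38.1 and 38.5 CPM in the shSATB1 libraries. Its groups did not overlap, its log2 fold change of -0.14 did not pass (adjusted p = 0.115), and it passed once the length trend was taken out (-0.23, adjusted p = 0.00858).

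The fold change was also set against features of the members that their choice did not use. Of 158 tested members with a KRAB signature 29 rose and 4 fell (median log2 fold change 0.13), and of 34 without it 3 rose and 2 fell (median 0.04). Of 29 members with a transcript GC content of at least 50%, 1 rose and 2 fell (median -0.04), and of the 163 others 31 rose and 4 fell (median 0.14). Median exonic length was 5574 bases with a KRAB signature and 3874 without, and 3696 bases in the GC-rich members against 5708. With the length trend of all tested genes taken out, 34 and 4 rose by signature, and 2 and 36 by GC content. With the trend of genes of at least 8 CPM the shares that rose were 24.7% and 23.5%, and 24.1% and 24.5%. Across the 192 members, which share libraries, Spearman's rho with the log2 fold change was -0.29 for GC content, 0.17 for exonic length, 0.12 for the number of fingers and -0.15 for the mean level. With the fold change less the length trend of all tested genes, rho was -0.20, -0.09, 0.10 and -0.23 in the same order. In the promoters, the CCAAT box was present in 11 of 28 members that rose, 4 of 6 that fell and 26 of 141 that passed neither way. The median log2 fold change was 0.16 with the box and 0.12 without it. The ETS core was present in 13 of 28, 1 of 6 and 66 of 141.

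Shared sequence between members bears on how reads are assigned. A median of 4.0025% of a member's 50-base windows recurred in other genes, 32 members had none and 69 had at least 10%. Of the 49 tested members with at least 10%, 8 rose (16.3%) and 2 fell (4.08%), and of the 143 others 24 rose (16.8%) and 4 fell (2.80%). The exons of 60 members overlapped another gene over at least 10% of their length. The 45 of these that were tested held 3 rises (6.67%) and 3 falls (6.67%). The 147 other tested members held 29 rises (19.7%) and 3 falls (2.04%). With the length trend of all tested genes taken out, 15.6% and 21.1% rose. Reads that overlapped more than 1 gene made up 9.54% to 10.1% in shCtrl and 8.99% to 9.32% in shSATB1. Their share was thus lower in every knockdown library. The part of read assignment in the difference between these members was not tested. The strand setting of the counting is not given in the sources used here.

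KRAB zinc finger proteins act through corepressors and heterochromatin factors, whose transcripts were examined as a list. Of its 26 genes 5 rose (19.2%) and 6 fell (23.1%), with a median log2 fold change of -0.01. Without a length correction these shares are near those of all tested genes (14.3% and 16.6%). With the length trend of all tested genes taken out, 4 were called higher and 10 lower (15.4% and 38.5%, against 14.2% and 17.8%). With the trend of genes of at least 8 CPM, 6 were higher and 10 lower (23.1% and 38.5%, against 18.8% and 13.8%). TRIM28, the corepressor bound by the KRAB box, had 396, 446 and 432 CPM in the controls and 340, 369 and 339 CPM in the knockdown libraries. All knockdown libraries lay below all control libraries, and it fell by 0.28 (SE 0.0662, adjusted p = 0.00539). SETDB1 stood at 53.6, 48.4 and 51.8 CPM with the control hairpin, against 54.3, 55.6 and 51.3 CPM after knockdown, with overlapping groups (log2 fold change 0.07, adjusted p = 0.486). ATF7IP, the partner that stabilises SETDB1, rose from 52.8 ± 7.65 to 70.6 ± 1.78 CPM (log2 fold change 0.42, adjusted p = 0.00284). KIAA1551, also called RESF1, which is known to bind SETDB1, rose from 290.6 ± 30.1 to 386 ± 28.5 CPM (0.41, adjusted p = 0.00182). ATRX, a chromatin remodeller of heterochromatin, rose from 148 ± 20.04 to 203 ± 18.5 CPM (0.46, adjusted p = 0.00222). SUV39H1, an H3K9 methyltransferase, fell from 25.3 ± 2.34 to 18.4 ± 1.44 CPM (-0.46, adjusted p = 0.00205). With the length trend of all tested genes taken out, ATF7IP was at 0.26 and KIAA1551 at 0.37. ATRX was then at 0.24 and SUV39H1 at -0.39, and all 4 stayed called. With the covariate 1 of the list was called higher (CHD3) and 3 lower (CBX1, DNMT1 and UHRF1; these 4 names were chosen after their values were seen), and TRIM28 was not called (adjusted p = 0.384). ATF7IP, KIAA1551, ATRX and SUV39H1 did not pass with it either (adjusted p = 0.763, 0.441, 0.766 and 0.179).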

How the data were processed

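For every library the authors deposited raw counts by Ensembl gene, made with Trim Galore, STAR and HTSeq on hg38, per the submitters' processing notes. Versions, annotation release and strand setting were not given in the sources used here. All 58735 identifiers matched GENCODE 29, which gave symbols, positions, exonic length (all exons merged) and transcripts. The 5 lines that name no gene were left out of library sizes; reads in no annotated exon made up 7.77% to 11.7% of reads.

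The 3 shSATB1 and 3 shCtrl libraries were compared with edgeR 4.0.16 in R 4.3.3 (TMM, filterByExpr with a minimum count of 10, quasi-likelihood F test, Benjamini-Hochberg adjustment over 17520 genes, threshold 0.05), and the code was tested on simulated data. Length trends were loess curves (span 0.3) of log2 values on log2 exonic length. Limma 3.58.1, DESeq2 1.42.0, Python 3.11.15 and matplotlib 3.10.9 were also used. The floor of 3 reads covers counting error only. Read-through loci were not counted as members (3 loci, none called).

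Members and lists were chosen with earlier results of these data known. Named genes were the 10 largest rises and falls among called members of at least 2 CPM in the higher group without overlap (only 6 falls qualified), the 3 highest levels per kilobase, ZNF91, ZNF93, ZNF146, ZNF274, ZNF331, ZNF350, ZNF473 and ZNF587, in the corepressor list up to 4 called genes with TRIM28 and SETDB1, and SATB1. Other called members are named only as belonging to a position group, and were not chosen by that rule. Finger counts, KRAB signatures and shared windows came from GENCODE transcripts. Alternatives were other normalizations, filters and tools, a replicate block, length and GC offsets, a covariate, a 1.2-fold null hypothesis and leaving out each library. The trend of genes of at least 8 CPM was added after seeing the data.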

Additional observations from a re-analysis of the deposited data

How the results depend on the processing

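Across 105 alternative values of the counts and medians, 88 stayed within the limits set for them and none changed direction. The 32 higher and 6 lower members became 8 and 4 with the covariate (a library's share of reads outside annotated exons), with a median log2 fold change of 0.0583, and 3 and 1 when a change had to exceed 1.2-fold. Leaving out 1 library in turn gave 17 to 49 higher and 2 to 8 lower members. For these fits and the 1.2-fold null, the shares of all tested genes are not given here. 12 members stayed higher and 1, ZNF101, stayed lower with every library left out. In the corepressor list 10 genes (38.5%) were lower under length offsets and under length and GC offsets. The count was also 10 under the trend of genes of at least 8 CPM. Of all tested genes 17.8% were lower under length offsets and 13.8% under that trend, and of tested coding genes 21.9% and 17.7%. In the list 1 was higher and 3 were lower with the covariate, and 0 and 0 passed the 1.2-fold null. With the trend of genes of at least 8 CPM, chosen after seeing the data, the median above the trend was 0.144. The cause of these differences was not tested. Of 432 values for 24 named members, 384 gave the same result as the main fit. For the named members not called there, the same result means that they stayed uncalled. A call was lost in 45 values and gained in 3, with none reversed. A gap of 500 kb in place of 1 Mb gave 20 groups, 8 of them with at least 10 tested members.

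With the replicate number as a replicate block 40 members were higher and 6 lower. Same-numbered libraries deviated together with correlations of 0.0798, 0.0712 and 0.0032, so the numbers were not taken as pairs. shCtrl 3 correlated best with shSATB1 1, not with its own number.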
